A study of Mus musculus with 2 samples.

Results

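The 10 immediate early genes described here were followed in liver and fat of mice on a normal or a high-fat diet: Fos, Fosb, Jun, Junb, Egr1, Nr4a1, Ier2, Ier5, Atf3 and Dusp1. The set was fixed by gene symbol, and probes were assigned to a symbol through their RefSeq transcript accession. All 10 genes had a probe, with 11 probes on 20 spots per array, out of 20886 genes with a probe. Ier5 had 2 probes of 1 spot each, the Fos probe was printed on 10 spots, and every other gene rested on 1 spot. The mice were male C57BL/6J WT animals held under specific pathogen-free conditions on a 12-h light cycle, and each diet was given for 4 weeks. Their age, the fat depot and the hour of sampling are not given in the sources used here. The labels describe 10 livers and 10 adipose tissues whose RNA was combined by diet, so each measurement is of a pool and holds no spread between animals. Each tissue was hybridised to 1 array, with the normal-diet (ND) pool in the green channel (Cy3) and the high-fat (HFD) pool in the red channel (Cy5). No array with the dyes swapped is among those used here, so a dye effect of a probe and an effect of diet cannot be told apart, and no test across animals is possible.

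Immediate early genes are transcribed within minutes of a stimulus, without new protein synthesis, when MAP kinases, cAMP or calcium signals activate factors such as SRF, the ternary complex factors and CREB that already sit at their promoters. Their short-lived transcripts decay quickly afterwards. In liver they are known to respond to feeding, hormones, injury and regeneration. Fos, FosB, Jun and JunB pair through leucine zippers to form AP-1, which binds the sequence TGANTCA. EGR1 is a zinc finger factor, NR4A1 an orphan nuclear receptor induced by cAMP and known to raise gluconeogenic genes in hepatocytes, and ATF3 a stress-induced member of the ATF/CREB family. IER2 and IER5 are small nuclear proteins. DUSP1 dephosphorylates MAP kinases and so closes the loop.

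Promoters are shown for the genes with the highest liver ratios, Fos, Nr4a1, Ier5 and Atf3, and for Dusp1, the only one of the 10 below 0 in liver. The RefSeq promoter table (GRCm38.p6) held 8 of the 10 genes. The 250 bases before the annotated start are given 5′ to 3′ on the strand of the gene, at chr12:85473640-85473889 (plus strand) for Fos, chr15:101266596-101266845 (plus) for Nr4a1, chr1:155099637-155099886 (minus) for Ier5, chr1:191183334-191183583 (minus) for Atf3 and chr17:26508473-26508722 (minus) for Dusp1. Capitals mark exact matches, on either strand, to the cAMP response element (CRE, TGACGTCA), its short core (TGACG) and the TATA box (TATAAA).
Fos: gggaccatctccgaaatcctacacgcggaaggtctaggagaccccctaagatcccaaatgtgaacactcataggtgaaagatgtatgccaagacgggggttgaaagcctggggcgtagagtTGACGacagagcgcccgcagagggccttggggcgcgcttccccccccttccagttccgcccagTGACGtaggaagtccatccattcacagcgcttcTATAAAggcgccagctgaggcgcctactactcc
Nr4a1: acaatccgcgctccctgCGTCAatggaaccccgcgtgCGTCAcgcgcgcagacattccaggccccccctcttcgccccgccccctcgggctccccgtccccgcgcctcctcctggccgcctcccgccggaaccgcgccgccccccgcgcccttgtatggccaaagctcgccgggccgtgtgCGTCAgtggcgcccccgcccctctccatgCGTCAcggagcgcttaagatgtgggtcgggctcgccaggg
Ier5: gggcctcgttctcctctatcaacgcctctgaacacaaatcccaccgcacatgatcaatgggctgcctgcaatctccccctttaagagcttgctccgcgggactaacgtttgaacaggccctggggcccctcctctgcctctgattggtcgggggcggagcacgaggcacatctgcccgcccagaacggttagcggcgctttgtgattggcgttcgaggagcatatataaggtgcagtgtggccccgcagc
Atf3: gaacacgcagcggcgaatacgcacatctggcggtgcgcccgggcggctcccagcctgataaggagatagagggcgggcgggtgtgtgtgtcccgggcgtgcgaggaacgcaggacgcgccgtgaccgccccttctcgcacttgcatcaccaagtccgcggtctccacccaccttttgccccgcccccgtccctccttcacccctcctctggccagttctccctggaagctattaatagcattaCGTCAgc
Dusp1: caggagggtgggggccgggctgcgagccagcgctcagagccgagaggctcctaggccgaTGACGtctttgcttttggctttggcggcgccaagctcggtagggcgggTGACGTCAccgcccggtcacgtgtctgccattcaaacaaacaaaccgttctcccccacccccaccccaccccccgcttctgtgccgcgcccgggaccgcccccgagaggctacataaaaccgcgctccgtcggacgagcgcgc
The core is contained in the full element, so 1 full element counts as 2 cores. Nr4a1 carried 4 cores, and 0.137% of the 32851 promoters of the table have at least 4. Fos carried 2 cores, the nearer at 66 to 62 bases before the start, and a TATA box at 33 to 28 bases, a motif that 12.4% of all promoters hold. Dusp1 held the only full element, 143 to 136 bases before the start, against 1.55% of all promoters, and 3 cores in all. Atf3, Fosb and Junb had 1 core each, and Ier5 and Jun had none. In all, 6 of 8 had at least 1 core, against 17.8% of all promoters. None of the 8 held an AP-1 site (TGANTCA, 6.75% of all promoters), a CArG box (1.47%), the element that SRF binds, or an EGR site (GCGTGGGCG, 0.536%) in this window. The GC content of the 8 windows lay between 58.4% (Fos) and 74.4% (Nr4a1), above the median of 52.4% over all promoters. A match of letters is no measurement of binding. Variants of these sequences and elements further upstream were not searched, so a motif counted as absent may be there in another spelling.

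Ratios were obtained for 13640 genes in liver and 14315 in fat. Where a ratio below has an error after ±, it is the one the scanner software deposited, unless named SD. It covers the measurement on that array alone and had a median of 0.21 on the log2 scale in either tissue. Spot signals had medians of 93 (green) and 127 (red) in liver and of 97 and 274 in fat. Each tissue was on an array of its own, so a difference between the tissues cannot be told apart from one between the arrays. In the normal-diet pools, hepatocyte and adipocyte markers fitted the labelled tissues. The 15 hepatocyte markers summed to a level of 1453369 in liver and 234074 in fat, where Cyp2e1 weighed most (log2 level 16.52). The adipocyte markers summed to 148562 in liver (11 measured of 13) and 1159122 in fat (13 of 13). Pck1, Car3 and Acsl1, at log2 levels of 16.24, 15.01 and 14.96, made up most of the liver sum. Adipoq stood at 7.03 in liver and 16.74 in fat. Markers of other organs were also found in the adipose pools, as given below. In bulk tissue, fewer cells of a type and less RNA per cell cannot be told apart.

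The liver array asks how the high-fat and the normal diet differ in liver. Of the 10 genes, Ier5, Nr4a1 and Fos were at least 2-fold higher in the high-fat pool, Atf3 came close to 2-fold, and Dusp1 was lower. Ratios are log2 of the high-fat over the normal-diet channel, after loess within the array. They ran from -0.46 to 1.27, with a median of 0.33, and 9 of 10 lay above 0, where 52.3% of all genes did. The median of all 13640 liver genes was 0.01. At least 2-fold higher were 3 of the 10, where 0.491% of all genes were (67), and at least 2-fold lower were 0 of the 10, where 0.579% were (79). That count of 3 depended on the processing: it was 0 with all local backgrounds kept as deposited and 2 with no filter on dim probes or with both Ier5 probes averaged. Median centring in place of loess gave 445 higher and 28 lower genes, with the median of all genes at 0.32, and 4 of the 10 higher. By another measure, a ratio beyond 2 times its own scanner error, 4 of the 10 were higher (4.53% of all genes) and 1 lower (3.3%).

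The adipose array puts the same question to fat. None of the 9 measured genes was at least 2-fold higher (4.23% of all genes, 605) or lower (5.13%, 735), and the highest were Atf3 at 0.87 and Fos at 0.81. The ratios ran from -0.43 (Jun) to 0.87, with a median of 0.25 beside -0.01 over all genes. Above 0 lay 7 of 9, where 49.3% of all genes did. Past 2 times their error were Fos and Atf3 as higher and Jun as lower, and 13.7% of all genes were higher and 13.7% lower by that measure. Under median centring 4208 genes were at least 2-fold higher and 616 lower, with the median of all genes at 0.69, and 5 of the 9 were higher. Markers of other organs differed between the adipose pools. Of 20 small intestine markers 19 were measured, and all 19 were at least 2-fold higher in the high-fat pool (median log2 ratio 4.45, summed level 26619 in the normal-diet and 939369 in the high-fat pool), led by Fabp2 at 6.42 and Reg3b at 6.36. Lower by at least 2-fold were 13 of the 15 markers of hepatocytes (median -4.29, from 234074 to 59141, led by Ambp at -5.59 and Fgg at -5.32), 12 of 13 of exocrine pancreas (-1.97, from 31856 to 6755, Try4 at -2.98), 6 of 6 measured of 9 of the male reproductive tract (-3.09, from 85772 to 8436, Tnp2 at -4.27) and 5 of 10 measured of 14 of skeletal muscle (-1.17, from 20414 to 6413, Tnnc2 at -3.29). Cyp2e1 weighed most in both hepatocyte sums, with log2 levels of 16.52 and 15.59. Its ratio was -0.93, so those sums differ less than most of the markers do. Adipocyte markers summed to 1159122 and 1039875, with Lep (1.66) and Cfd (-1.70) past 2-fold, and macrophage markers to 18529 and 18764, with none of 11 past it. The part of these marker groups in the adipose ratios was not tested.

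**Figure D1:**
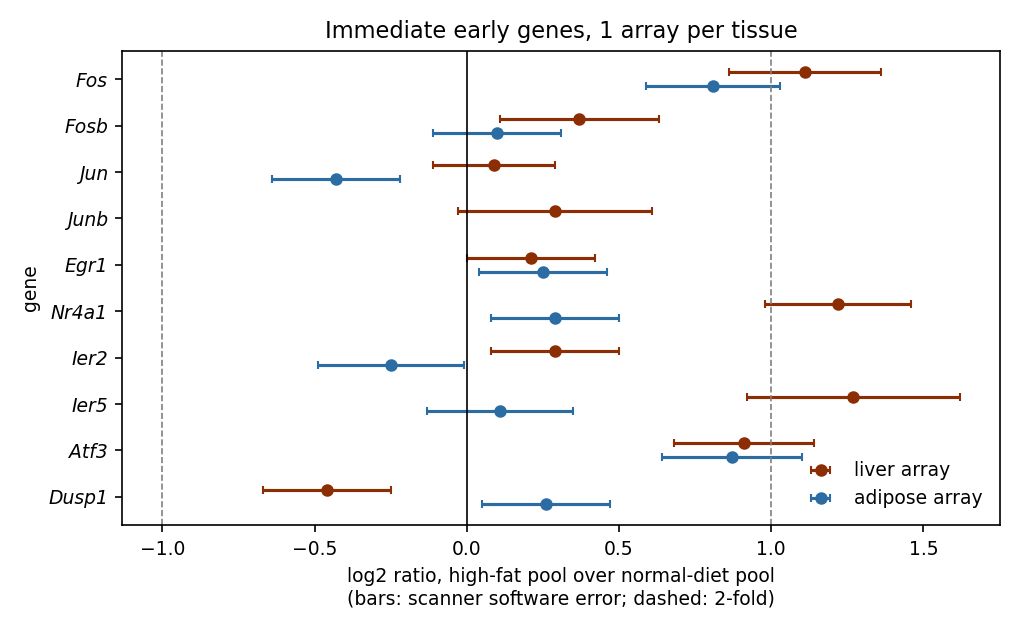
Log2 ratio of the high-fat over the normal-diet pool (x axis) for each gene (y axis), liver in brown and adipose tissue in blue, with the scanner software's error of that ratio as bars and 2-fold as dashed lines. Ier5 (1.27), Nr4a1 (1.22) and Fos (1.11) lie past 2-fold in liver, no gene does in fat, and Junb has no adipose point because its normal-diet channel was not well above background.

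Fos offers the only repeated measurement in the set. On the liver array its 10 spots had green signals (median pixel intensity, not normalized) of 138.0 at the lowest, 150.75 at the median and 184.0 at the highest, and red signals of 479.0, 563.0 and 672.0. Every red signal therefore exceeded every green one. Background correction and loess were then applied, which adjust for the dye difference shared by spots of like brightness, not for one particular to a probe. The log2 ratios were 1.01 at the lowest, 1.06 at the median and 1.42 at the highest (mean 1.11 ± 0.13 SD over 10 spots of 1 array), or 2.16-fold. All 10 spots stood past 2-fold, and the second highest was at 1.23. The spread of Fos over spots was wider than the median SD of 0.05 among the 256 probes with repeated spots that were measured in liver, where 8 had a wider one. Only 2 of these 256 had a higher ratio than Fos. Spots of 1 array show the precision of printing and hybridisation, not that of the animals.

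On the adipose array the same 10 spots had green signals of 344.0, 412.75 and 528.5 and red signals of 2940.0, 3794.25 and 4671.0 (lowest, median and highest). The red channel of this array was the brighter one for most spots, as its medians show. After loess the ratios were 0.77, 0.79 and 0.90 (mean 0.81 ± 0.04 SD, 10 spots), or 1.75-fold. No adipose spot reached 2-fold, and the spots of the arrays did not overlap in ratio under this processing. The order of the tissues depended on it. With median centring Fos was at 1.39 in liver and 1.73 in fat, or 1.08 and 1.04 relative to all genes. With local backgrounds as deposited Fos was at 0.18 in liver and 0.81 in fat. Among all genes of each array, Fos ranked 47 from the highest of 13640 in liver and 818 of 14315 in fat, where the ratios spread more widely.

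**Figure D2:**
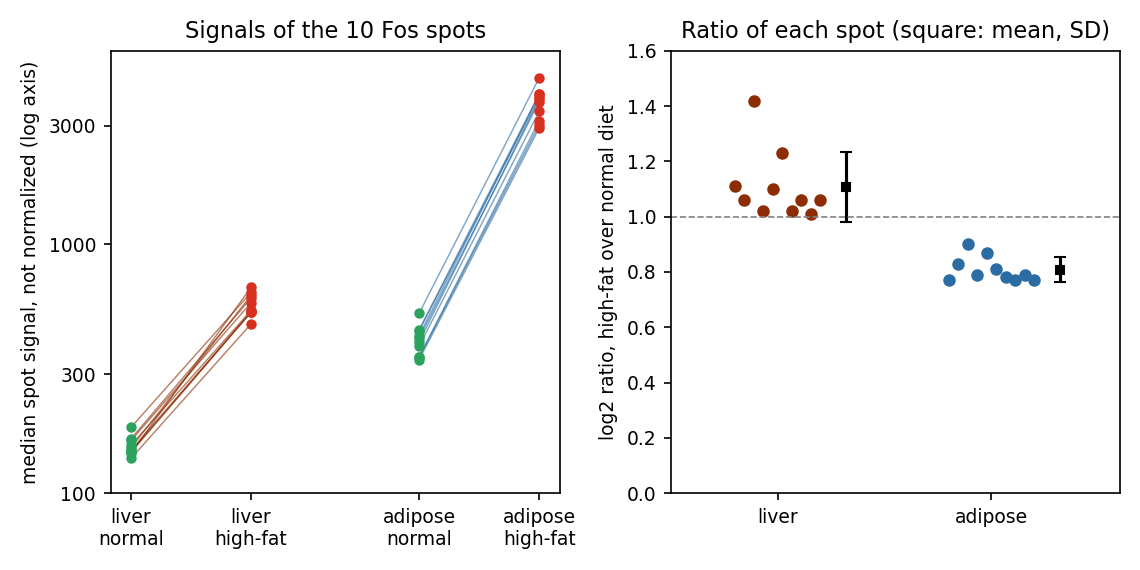
Left, unnormalized median signals (log axis) of the 10 Fos spots in the normal-diet (green points) and high-fat (red points) channel of each array, with lines joining the channels of a spot. Right, the log2 ratio of each spot after normalization, with mean and SD as a black square and bar: liver spots range from 1.01 to 1.42 and adipose spots from 0.77 to 0.90.

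The other AP-1 subunits had ratios closer to 0. Fosb, a close relative of Fos, had liver signals of 88.0 (green) and 162.5 (red) and a ratio of 0.37 ± 0.26 (scanner error), and adipose signals of 200.0 and 926.0 and a ratio of 0.10 ± 0.21. Neither exceeded 2 times its error. Jun, a main dimer partner of Fos, had signals of 5998.5 and 12404.0 in liver (0.09 ± 0.20) and of 4512.5 and 19081.5 in fat (-0.43 ± 0.21). In liver Jun was thus within its error, while in fat it was 1.35-fold lower in the high-fat pool, just past 2 times the error. That adipose direction depended on the scaling: with median centring in place of loess Jun stood at 0.67, where the median of all genes was 0.69, and so at -0.02 relative to them. Junb lay close to background. In liver its signals were 70.0 and 104.0, with a ratio of 0.29 ± 0.32, and in fat 63.0 and 115.0, where green was not well above background (a ratio of 0.15 ± 0.59 without that filter). No direction can be read from either.

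Among the other transcription factors, Nr4a1 was past 2-fold in liver. Its signals were 1113.0 in green and 4774.0 in red there, a ratio of 1.22 ± 0.24 (2.34-fold), which ranked 32 of 13640. In fat they were 2311.0 and 15832.0, a ratio of 0.29 ± 0.21. The liver ratio exceeded the adipose one by 0.93; with 1 array per tissue that difference was not tested. Egr1 had signals of 2164.0 and 4624.0 in liver (0.21 ± 0.21) and 1852.0 and 12181.0 in fat (0.25 ± 0.21), with no difference past 2 times the error on either array.

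Atf3 was higher in the high-fat pool of both tissues by nearly the same amount. Its signals were 148.5 and 468.0 in liver, a ratio of 0.91 ± 0.23 (1.87-fold), and 182.0 and 1545.0 in fat, a ratio of 0.87 ± 0.23 (1.83-fold). Fos and Atf3 were the members above 0.7 on both arrays, a limit chosen after their values were seen, and 34 of the 12688 genes measured on both arrays (0.268%) were. In liver 0.696% of genes had a higher ratio than Atf3, and in fat 5.16% did.

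The IER genes were among the dimmer genes of the set. Ier2 had liver signals of 142.0 and 275.0 (0.29 ± 0.21) and adipose signals of 99.0 and 242.5 (-0.25 ± 0.24). Ier5 had the highest liver ratio of the set, but its 2 probes disagreed. One probe gave 71.0 and 272.0 and a ratio of 1.27 ± 0.35 (2.41-fold, rank 29 of 13640). The other gave 68.5 and 78.0, a ratio of -0.06 ± 0.44, and its red signal was not well above background, so it did not enter the liver value. With both probes averaged, as when dim probes were not filtered, Ier5 was at 0.60 and the count past 2-fold in liver was 2. In fat both probes were measured, at -0.02 ± 0.21 and 0.24 ± 0.27, with a mean of 0.11, and with the brighter probe alone the value was -0.02. The probe at 1.27 in liver was the one at -0.02 in fat.

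Dusp1, the phosphatase, went the other way in liver. Its signals were 1888.0 and 2494.0 in liver, a ratio of -0.46 ± 0.21 (1.38-fold lower in the high-fat pool; 2.91% of genes were lower still), and 1040.0 and 6639.0 in fat, a ratio of 0.26 ± 0.21. With median centring the liver value was -0.02, or -0.33 relative to all genes. Dusp1 is also on the list of glucocorticoid-responsive genes given below, whose median was -0.50 in liver and -0.67 in fat. The part of that response in the Dusp1 ratios was not tested.

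**Figure D3:**
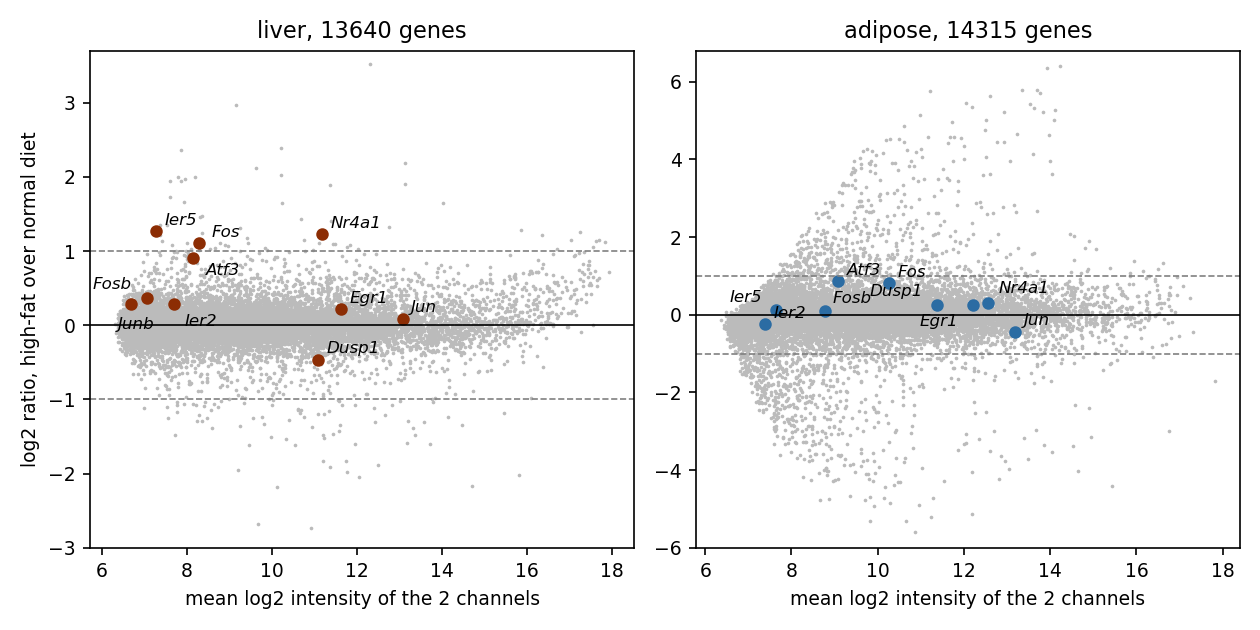
Log2 ratio of the high-fat over the normal-diet pool (y axis) against the mean log2 intensity of the channels (x axis) for all measured genes (grey) and the immediate early genes (coloured), liver left and adipose tissue right, dashed lines at 2-fold. In liver Nr4a1 (1.22), Fos (1.11) and Ier5 (1.27) lie above the band of other genes, and in fat the 9 measured genes lie between -0.43 and 0.87, inside a much wider spread.

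The liver values of the dimmer genes depended on how the local background was handled. The median local background of the liver array was 28 in green and 48 in red, but the highest reached 54510 and 132254, and those marked as outliers were replaced by the median. None of the 20 spots of the set was so marked, and their own backgrounds lay between 23.0 and 32.5 in green and between 41.0 and 62.5 in red. With all local backgrounds kept as deposited, the model that corrects the background left 0 of 10 genes past 2-fold in liver: Nr4a1 was at 0.86, Fos at 0.18, Atf3 at 0.13 and Ier5 at 0.10. When each spot's own local background was subtracted with no model, an alternative added after seeing the data, Ier5 was at 1.99, Fos at 1.34, Nr4a1 at 1.25 and Atf3 at 1.12. The log ratio deposited by the scanner software, converted to log2, gave 2.78, 1.49, 1.29 and 1.19 for the same genes.

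Levels of a gene can be set side by side over the 4 pools if brightness is taken to be distributed alike on both arrays, and the step between arrays has no error of its own. Log2 channel levels of Fos were 7.98 (liver, normal diet), 9.09 (liver, high fat), 9.75 (fat, normal diet) and 10.56 (fat, high fat). Nr4a1 followed the same order with 10.59, 11.82, 12.51 and 12.80. For both genes the high-fat liver pool lay between the normal-diet liver pool and both fat pools. Egr1 (11.51, 11.73, 12.14 and 12.40) and Fosb (7.15, 7.52, 8.48 and 8.58) kept this order, although the neighbours within a tissue did not differ beyond 2 times the scanner error. Atf3 ordered by diet first, with 7.95 and 8.45 in the normal-diet pools of liver and fat and 8.85 and 9.32 in the high-fat pools. Jun had 12.91 and 13.00 in liver and 13.57 and 13.14 in fat (normal diet, then high fat), and Dusp1 had 11.36 and 10.89 in liver and 11.21 and 11.48 in fat. Ier2 was the only gene lower in both fat pools (7.27 and 7.02) than in both liver pools (7.82 and 8.12). For Ier5 the liver levels rest on 1 probe and the fat levels (7.33 and 7.44) on 2. The probe measured in all 4 pools was highest in the high-fat liver pool, at 8.19. It stood at 6.92 in the normal-diet liver pool and at 7.78 and 7.76 in fat (normal diet, then high fat). The other probe was lowest in the high-fat liver pool (6.55, not well above background), with 6.61 in normal-diet liver and 6.88 and 7.12 in fat.

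**Figure D4:**
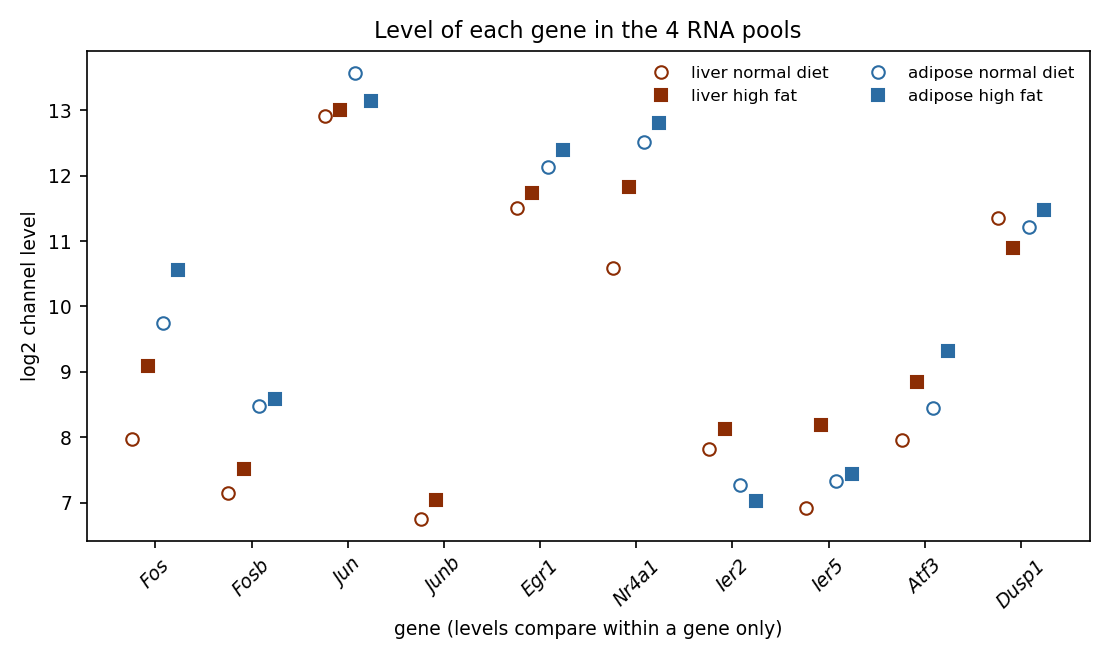
Log2 channel level (y axis) of each gene (x axis) in the 4 pools, with liver in brown, adipose tissue in blue, open circles for the normal diet and filled squares for the high-fat diet; levels compare only within a gene. Fos climbs from 7.98 to 10.56 over the pools, Junb is shown in liver only, and Ier5 rests on 1 probe in liver and 2 in fat.

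Other genes of the wider family had liver ratios centred near 0. Of 81 other immediate early and related genes, 70 were measured in liver, with a median of 0.02. Past 2-fold were 0 as higher (0.491% of all genes were) and 2 as lower (0.579%). Those were Klf10 (-1.24 ± 0.23), a TGF-beta-induced repressor, and Gadd45b (-1.14 ± 0.23), a stress sensor. Among 9 measured AP-1 and small Maf relatives the lowest was Jdp2 (-0.61), a repressor of AP-1, and the highest Maff (0.17), with Fosl2 at -0.10. Of the 6 EGR, KLF and NAB genes, Nab2, a corepressor of EGR1, was at 0.54 and Klf2 at -0.59. The one other NR4A receptor measured, Nr4a2, was at 0.21 ± 0.22. In the ATF/CREB and C/EBP list (11 measured, median 0.01, none past 2-fold) the farthest were Cebpd (-0.78) and Ddit3 (-0.63), which encodes CHOP. Among 8 other dual specificity phosphatases Dusp6 (0.40), which acts on ERK, and Dusp4 (-0.36) were farthest from 0. Ier3 and Ier5l were at -0.08 and 0.19.

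In fat 75 of the 81 relatives were measured, with a median of -0.03, and past 2-fold were 3 as higher and 4 as lower, where 4.23% and 5.13% of all genes were. The higher ones were Batf2 (1.18), an AP-1 factor of the interferon response, Rgs1 (1.14), a regulator of G protein signalling in leukocytes, and Tnfaip3 (1.01), the NF-kappaB inhibitor A20. The lower ones were Ptgs2 (-3.68 ± 0.42), the inducible cyclooxygenase, Rgs2 (-1.45), Gadd45g (-1.09) and Cebpd (2.0-fold lower), an early factor of adipogenesis. Klf2 (-0.66) and Klf4 (0.47) were farthest among the EGR and KLF genes, Dusp9 (0.79) and Dusp2 (0.43) among the phosphatases, and Ier5l (-0.56) and Ier3 (-0.07) were the IER relatives. Nr4a2 was at 0.04 ± 0.23. The marker groups given above for fat differed between the same pools.

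Genes upstream of the set were centred near 0. All 27 kinases and factors of this list were measured on both arrays, with a median of 0.01 on each. In liver none passed 2-fold, and the farthest were Mapk9, which encodes JNK2, at 0.58 and Elk1, a ternary complex factor, at 0.54, with log2 levels of 16.87 and 17.41 (the 157 liver genes of mean log2 intensity 16 to 18 had a median of 0.37). In fat Rps6ka1, a kinase downstream of ERK, was 3.26-fold higher (1.71 ± 0.25) and Map2k1, which encodes MEK1, was at 0.77. Of 19 genes known as later targets of AP-1 or EGR1, 11 were measured in liver (median 0.20), with Hmox1, heme oxygenase, lower (-1.29, a mean of 2 probes). In fat 14 were measured (median 0.13), with the chemokine Ccl2 higher (1.47 ± 0.26) and Timp1 at 0.91.

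**Figure D5:**
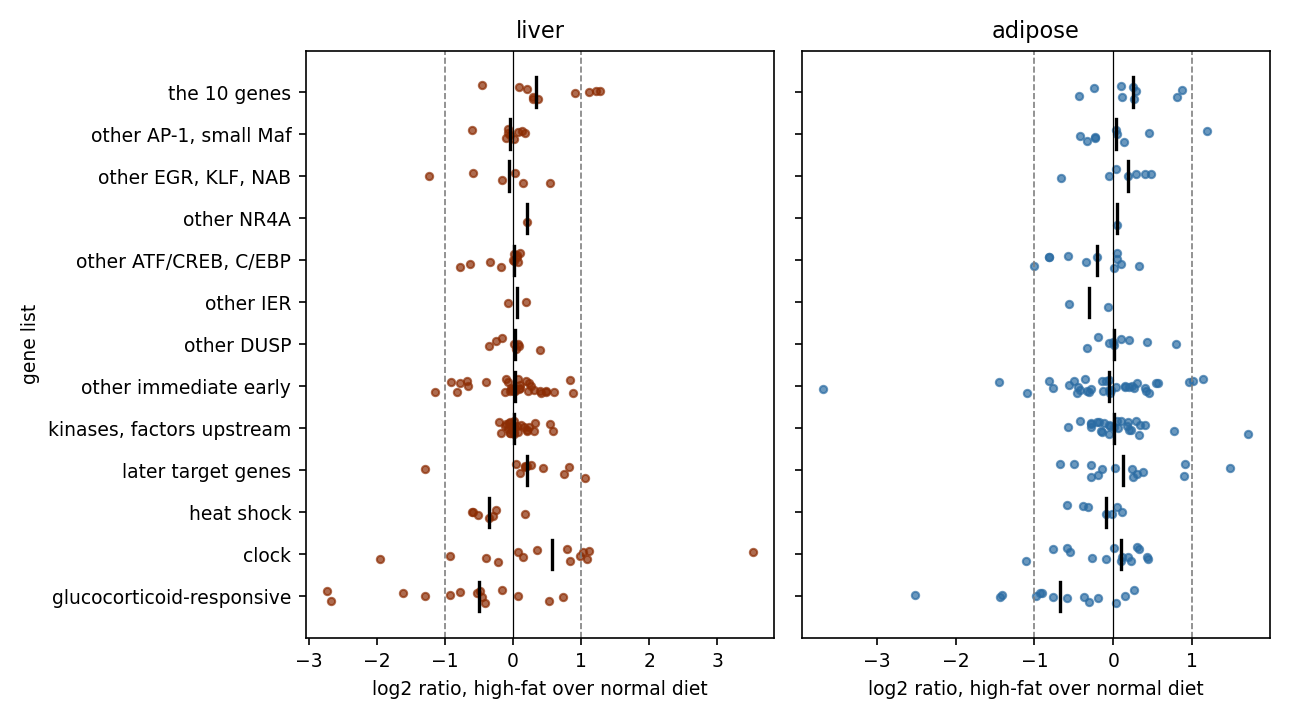
Log2 ratio of the high-fat over the normal-diet pool (x axis) for every measured gene of each list (y axis), liver left and adipose tissue right, with the median of a list as a black bar and 2-fold as dashed lines. In liver the 10 genes have a median of 0.33 while their relatives centre near 0, clock genes spread from -1.95 to 3.52, and the glucocorticoid-responsive list has a median of -0.50.

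Other groups differed in the same liver pools. Of 14 measured clock genes 4 were at least 2-fold higher and 1 lower, namely Dbp (3.52), Nr1d1 (1.11), Cry2 (1.09), Nr1d2 (1.03) and, lower, Arntl (-1.95). Of 14 glucocorticoid-responsive genes, which include Dusp1, 4 were at least 2-fold lower and 0 higher (median -0.50), namely Zbtb16 (-2.73), Cdkn1a (-2.68), Ddit4 (-1.61) and Tsc22d3 (-1.29). Of 7 measured heat shock genes 1 lay above 0 (median -0.36), with Bag3 at -0.61 and Dnajb1 at -0.59. Skeletal muscle markers were lower (10 of 13 measured at least 2-fold, median -1.47, summed level from 63366 to 23181, led by Myh4 at -1.60 and Tnni2 at -1.59). Hepatocyte markers were centred above 0 (11 of 15 above 0, median 0.40, summed level from 1453369 to 2098625), with Cyp2e1 and Apoa2, both at 1.14, at least 2-fold higher. Both were bright, with log2 levels of 16.17 and 17.31 (Cyp2e1) and 16.71 and 17.86 (Apoa2). The 157 liver genes of mean log2 intensity 16 to 18 had a median of 0.37, and 5.1% of them were at least 2-fold higher. The part of brightness in the marker ratios was not tested. Of 20 small intestine markers 5 were measured (4 above 0, median 0.57, summed level from 43193 to 59340), with Reg3b at 1.35. Adipocyte markers (11 measured of 13) had a median of 0.08 and a summed level of 148562 and 182616, with Car3 (1.28) and Slc2a4 (-1.07) past 2-fold. Pck1, Car3 and Acsl1 made up most of both sums. Markers of macrophages (11 measured, median 0.11), granulocytes (5, -0.03), endothelium (10, 0.01) and fibroblasts (10, 0.05) had none past 2-fold, with summed levels of 7102 and 7955, 34219 and 35890, 7759 and 7553, and 24006 and 24493 in the normal-diet and high-fat pools. Most of the granulocyte sums came from Csf3r alone (log2 levels 14.97 and 15.04), and most of the fibroblast sums from Dcn (14.26 and 14.27). The part of these groups in the liver ratios of the immediate early genes was not tested. In fat, the glucocorticoid-responsive list had a median of -0.67 with 3 of 14 at least 2-fold lower. Those were Tat (-2.51), also a hepatocyte marker here, Fkbp5 (-1.44) and Zbtb16 (-1.41). The clock list had a median of 0.09 there, with Hlf (-1.11) past 2-fold. The heat shock list had a median of -0.09, with Bag3 (-0.59) and Hsph1 (-0.38) farthest from 0.

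The genes most like the 3 that passed 2-fold in liver were found by the distance in both log2 ratios among 12687 other genes, a likeness over 2 tissues. Nearest to Fos were Rnf43 (1.12 in liver, 0.83 in fat), Gbp3 (1.18, 0.77) and Spag7 (1.02, 0.79). Nearest to Nr4a1 were Clec2i (1.22, 0.25), Fscn1 (1.35, 0.33) and Kiss1 (1.11, 0.37). Nearest to Ier5 were Nudt7 (1.32, 0.06), Afdn (1.14, 0.18) and Clec2i.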

How the data were processed

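RNA pools were compared on Agilent arrays of 2 colours, 1 array per tissue, with ND in Cy3 and HFD in Cy5 per the labels. The file headers give Agilent Feature Extraction 11.5.1.1 (protocol GE2_1105_Oct12); version 8.5.1.1 is the one in the submitters' processing notes. The deposited files hold median spot and local background intensity, not normalized. They also hold a deposited log10 ratio of red over green with its log10 error, from which the software had removed background and dye bias, and flags of 0 or 1.

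Local backgrounds flagged as outliers took the array's median. Then limma 3.58.1 (R 4.3.3) was used for normexp with offset 50 and for loess within each array, in which control spots had no weight. Spots, then probes of a gene, were averaged as log2 values without outlier spots. A probe counted as measured when the majority of its spots were well above background in both channels. Levels were scaled by Aquantile, which leaves ratios unchanged and assumes brightness to be distributed alike on both arrays. Unversioned accessions were matched to RefSeq symbols (GRCm38.p6). The array design is annotated on another build, so no gene positions are given. A ratio of at least 2-fold is a rule of size, not a test, and 1 array per tissue limits the precision.

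The members, lists and alternatives were chosen with earlier results of these data known. Named were all members and the 3 genes nearest to each member past 2-fold. From each list came the genes past 2-fold or else the 2 farthest from 0. Of the marker lists only the leading genes and those given beside a summed level are printed. A gene that this rule names is not reported here.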

Additional observations from a re-analysis of the deposited data

Results flagged for a closer look

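Ier2 and Dusp1 had opposite directions in the tissues, each by more than its own scanner error. Ier2 was at 0.29 in liver and -0.25 in fat, and Dusp1 at -0.46 in liver and 0.26 in fat. With 1 array per tissue the difference between the tissues was not tested. No group held enough samples for a search for outlying samples.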

How the results depend on the processing

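Ratios were recomputed under 10 alternatives, and under 2 chosen after seeing the data. No member past 2-fold changed sign under any of them. In liver the count of members at least 2-fold higher was 3, and between 2 and 4 under all alternatives but one: with local backgrounds as deposited it was 0. The liver median of 0.33 became 0.06 with local backgrounds as deposited, 0.52 with an offset of 10 (Ier5 then at 1.83), 0.66 with median centring, 0.67 with the software's log ratio, 0.62 with each spot's own background subtracted and 1.11 over the 5 members past 2 times their error, a filter that selects on the ratio. In fat 0 members were at least 2-fold higher; the count was 5 with median centring and 1 (Atf3, 1.17) with the software's ratio. The adipose median of 0.25 became 1.26 with median centring and 0.81 over the 3 members past 2 times their error. Over all genes, counts at least 2-fold higher and lower moved by over 1.5 times from 67 and 79 in liver to 445 and 28 with median centring, 20 and 35 with deposited backgrounds kept, 138 and 156 with the software's ratio, 110 and 106 with own backgrounds subtracted, 116 and 79 with 1 channel above background and 103 and 78 with no filter. In fat they moved from 605 and 735 to 4208 and 616 with median centring and to 901 and 1230 with the software's ratio. No member was at least 2-fold lower under any alternative. An offset of 50 draws dim ratios toward 0. In liver Fosb, Junb, Ier2, Ier5, Atf3 and Fos were dim, at signals of 70.0 to 154.6 in green. With an offset of 10 Fos was at 1.29 and Atf3 at 1.07 there. No paired analysis was possible because each tissue has 1 array.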
